A study of Homo sapiens with 18 samples.

Results

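A small set of H3K4me3 regions of NB4 cells carried no H3K27ac in any library. There were 246 such regions on chromosomes 1 to 22, which was 1.72% of the 14263 H3K4me3 regions of the same width and reproducibility and part of 26539 merged H3K4me3 regions in all. They were chosen from the peak lists alone. The peaks of the 6 H3K4me3 lists were merged where they shared at least 1 bp, and a merged region was taken when it was under 4000 bp wide, had a peak in at least 3 of the 6 lists and in at least 1 list of each condition, and overlapped no peak of the 6 H3K27ac lists. The 14017 regions that met the same rule but overlapped an H3K27ac peak in at least 1 list served for comparison and are called acetylated regions here. Of these, 13388 overlapped H3K27ac in all 6 lists and 629 in 1 to 5 lists.

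NB4 is an established human cell line derived from acute promyelocytic leukemia, the leukemia of the PML/RARα fusion protein. Cells grown without drug were compared with cells treated with maltonis, a maltol derivative made by synthesis, at 10 µM for 24 h. ChIP-seq, which sequences the DNA pulled down with an antibody to a histone mark, was done for H3K4me3, H3K9me3 and H3K27ac in 3 replicates per condition, which gave 18 libraries. All of them came from this 1 cell line and no other treatment was applied. The replicates are described as biological triplicates, and the tests below measure the spread between these libraries.

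H3K4me3 is the trimethylation of lysine 4 of histone H3. It is laid down around the start sites of genes, mostly active ones, and also at CpG-rich promoters whose genes are silent or poised. H3K27ac, the acetylation of lysine 27, marks active promoters and enhancers, so most H3K4me3 promoters carry it too. H3K9me3 is a repressive mark of constitutive heterochromatin, which is dense around centromeres and other repeats, and it is usually kept apart from H3K4me3. Absence of H3K27ac means here that no peak was listed, not that the mark was measured at 0.

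The H3K4me3 lists held 15841 to 17755 peaks per library and no read counts, so depth could not be taken from them. The paper states that the final reads of each mark were comparable in number between samples. The H3K9me3 lists held 2595814 to 3366296 reads in peaks, and the H3K27ac lists 17974940 to 20773316. Positions are those of the lists, in build hg19, and genes at these positions were not analysed here.

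The regions without H3K27ac were weak and narrow. Strength was first taken as the rank of a region's −log10 q within its own list, as a percentile, because the peaks of a list share 1 depth. The median percentile was 30.6, 29.7 and 30.7 in the untreated libraries and 25.2, 23.6 and 24.0 in the maltonis libraries. Acetylated regions had medians between 56.6 and 60.9, so the 2 groups of regions were apart in every library. The regions with H3K27ac in 1 to 5 lists were much closer, at 33.0 to 34.8 in untreated and 21.3 to 25.2 in maltonis libraries. Fold enrichment over the local background, as MACS2 gives it, had medians of 3.19 to 3.49 without H3K27ac and 3.98 to 4.52 in acetylated regions. H3K4me3 peak calls chose the regions, so these levels are descriptions and carry no test.

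The weakness was general. Only 7 of the 246 (2.85%) had a mean percentile above 50, against 57.5% of the acetylated regions. A peak was called in all 6 lists for 102 of them (41.5%), in 5 lists for 37, in 4 for 53 and in 3 for 54. Acetylated regions were called in all 6 lists in 83.2% of cases, but those with H3K27ac in 1 to 5 lists in only 280 of 629. Reproducibility and strength went together, since the median fold enrichment was 4.00 for those in all 6 lists and 2.94 for those in 3.

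The merged regions had a median width of 1300 bp, with quartiles at 826 and 2111 bp, and ran from 364 to 3894 bp. Acetylated regions had a median of 1869 bp. A width under 1000 bp was found in 33.3%, against 5.94% of acetylated regions. Within a library the called peaks were narrower than the merged region, with medians of 802, 738 and 767 bp in untreated and 870, 853.5 and 751 bp in maltonis libraries. Acetylated regions had 1360 to 1396 bp in untreated and 1605 to 1638 bp in maltonis libraries. Those with H3K27ac in 1 to 5 lists were close to the regions without it, at 831 to 867 bp and 703 to 744 bp. Merging widened the regions without H3K27ac to a median of 1.44 times their called width and acetylated regions to 1.21 times. These ratios are relative to called widths that differ between the groups, so they do not compare shifts of borders in bp.

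**Figure D1:**
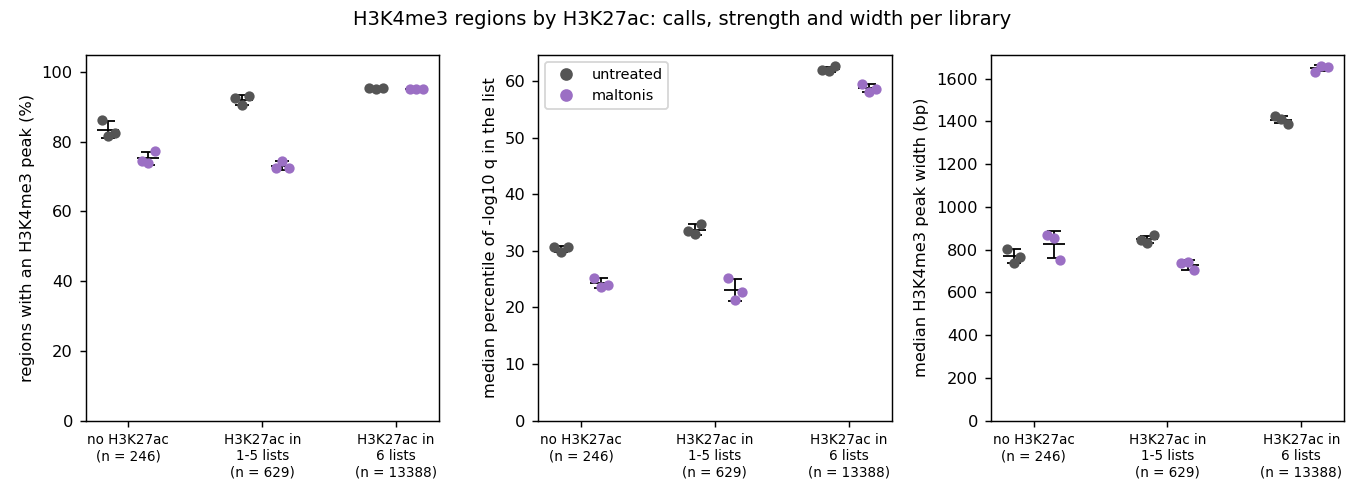
H3K4me3 in regions with no H3K27ac (246), H3K27ac in 1 to 5 lists (629) and in 6 lists (13388), per library: percent of regions with a peak (left), median percentile of the −log10 q (middle) and median called width in bp (right). Points are libraries, grey untreated and purple maltonis, and black bars give the mean ± SD (n = 3). Regions with no H3K27ac or with it in only some lists lay far below the fully acetylated regions in strength and width.

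At a fold enrichment of 3 or more, regions without H3K27ac were narrower than acetylated regions of the same height. Among regions with a mean fold enrichment from 5 to below 8, 26 without H3K27ac had a median called width of 898 bp and a median −log10 q of 13.9. The 3786 acetylated regions in that range had 1376 bp and 49.1. Their −log10 q was lower as well. Between 3- and 4-fold, 114 regions without H3K27ac had a median width of 698 bp against 1507 bp. The acetylated regions were not split by the number of H3K27ac lists in this comparison.

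The 26 high regions were the upper end of the set, divided from the rest only by the cut at a mean fold enrichment of 5. All but 1 of them (25) were called in all 6 lists, and 24 overlapped H3K9me3 in 0 lists. The other 2 overlapped it in all 6 lists. The 5 strongest by mean percentile all had H3K9me3 in 0 lists and lay 21.1 to 79.3 kb from the closest H3K27ac peak.

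The strongest was chr1:145209114-145210320, at a mean percentile of 66.0. Its fold enrichment was 7.73, 6.80 and 7.20 in untreated and 5.81, 7.58 and 7.0 in maltonis libraries, so the conditions overlapped. Its called width stayed between 1070 and 1185 bp in all 6 libraries. The next, chr1:120611067-120612329, had a fold enrichment of 7.47, 9.35 and 8.45 in untreated and 7.73, 6.73 and 7.06 in maltonis libraries, which also overlapped. It lay 873 kb from the longest span of chromosome 1 without any peak.

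The other 3 strongest were higher in every untreated library, as were 52.9% of all 12099 regions called in all 6 lists. The region chr2:114384133-114385505 had values of 9.09, 8.15 and 8.50 in untreated and 6.31, 6.16 and 7.17 in maltonis libraries. For chr7:76750542-76751914 they were 8.34, 8.22 and 7.08 against 6.08, 6.10 and 6.14. For chr7:102389300-102390829 they were 7.88, 7.47 and 7.13 against 5.38, 4.91 and 5.21. None of these differences reached the fold limit of the test described below, and the largest was a fall by 0.54 on the log2 scale (SE 0.058, limma FDR 0.000374).

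The widest regions were mostly weak. Just under the limit of 4000 bp were chr7:16436498-16440391 (3894 bp, mean percentile 7.50), chr20:26265408-26269298 (3891 bp, 9.23) and chr21:10835651-10839540 (3890 bp, 21.0). Just over it, and left out, were chr1:2619530-2623570 (4041 bp, 11.3), chr20:29814961-29819022 (4062 bp, 34.5) and chr1:2583673-2587787 (4115 bp, 26.5). Regions on both sides of the limit were alike in that all but chr20:26265408-26269298, with 3 lists, overlapped H3K9me3 in all 6 lists. In all, 16 regions were left out for width alone.

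The other 2 of the 5 widest lay together on chromosome 10. The region chr10:39136724-39140569 was called in all 6 lists with a fold enrichment of 3.16, 3.27 and 3.15 in untreated and 3.64, 3.16 and 3.18 in maltonis libraries, and it overlapped H3K9me3 in all 6 lists. The region chr10:38795013-38798778 was called in 1 untreated list, at 2.67, and in 3 maltonis lists, at 3.15, 3.26 and 3.06. The wide regions were thus low and in part called in few lists.

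The regions without H3K27ac were not spread like acetylated ones along the chromosomes. Their median distance to the closest H3K27ac peak was 53.5 kb. Only 3 lay within 1 kb of one, the closest at 407 bp, and 31 within 10 kb. There were 79 beyond 100 kb and 15 beyond 1 Mb, the farthest at 2.29 Mb. Few therefore sat at the edge of an acetylated domain.

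Position was also measured against the longest stretch of each chromosome that held no peak of any mark in any library. This stretch was at least 3.00 Mb long on 18 chromosomes, and stretches of that size in hg19 are mostly unsequenced centromeric and heterochromatic gaps. Of the regions without H3K27ac, 66 (26.8%) lay within 1 Mb of it and 101 (41.1%) within 5 Mb. Of the acetylated regions, 1.21% lay within 1 Mb and 7.43% within 5 Mb. Another 20 (8.13%) lay within 1 Mb of the outermost peak of a chromosome, against 4.10% of acetylated regions. These measures were chosen after the positions had been seen and are given as descriptions. No list of repeats, gaps or places of unreliable read mapping was used, so mapping near these spans was not tested.

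**Figure D2:**
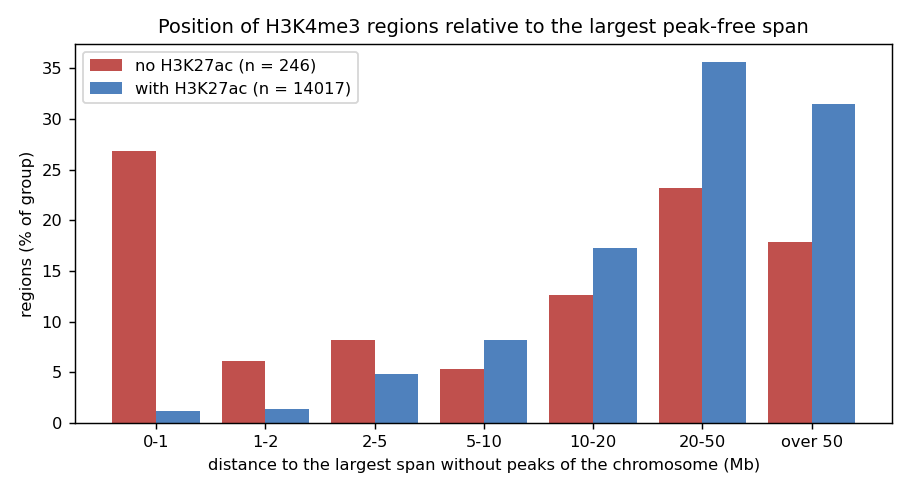
Distance in Mb from each H3K4me3 region to the longest span of its chromosome without any peak (x axis, bins of unequal width) against the percent of regions (y axis), for 246 regions without H3K27ac (red) and 14017 with it (blue). The bin within 1 Mb held 26.8% of the regions without H3K27ac and 1.21% of those with it.

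They were clustered. The next region of the set lay within 1 Mb for 134 (54.5%) and within 100 kb for 76. Linking neighbours within 1 Mb gave 4 clusters of 5 or more, which together held 34 regions. The largest held 12 regions between 32817025 and 34184150 of chromosome 16, and 11 of these overlapped H3K9me3 in all 6 lists. The next held 10 regions within 0.939 Mb of chromosome 7, from 61054444 to 61993215, of which 7 overlapped H3K9me3 in all 6 lists and 3 in none. A cluster of 6 lay at chr19:27788999-27906558 and another of 6 at chr21:10085030-11186892.

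Chromosomes differed in how many they held. Chromosomes 7 and 16 had 26 each, which was 3.32% and 3.87% of their regions of this width and reproducibility, and chromosome 21 had 7, or 4.02%. Chromosome 1 had 22, or 1.56%. At the low end chromosome 13 had 2, or 0.658%. On chromosome 21 all 7 lay within 2 Mb of the longest empty span, and on chromosome 16 this held for 15 of 26.

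H3K9me3 was found at these regions more often than at acetylated ones. A peak of H3K9me3 overlapped 37.8%, 37.4% and 39.0% of them in the untreated and 41.5%, 40.7% and 39.8% in the maltonis libraries. For acetylated regions the shares were 16.2%, 16.0% and 16.5% in untreated and 20.3%, 20.2% and 19.4% in maltonis libraries. The difference was 21.3 percentage points on average and had the same sign in 6 of 6 libraries (exact two-sided sign-flip test over libraries, p = 0.0312, the smallest possible). All 6 libraries score the same regions of 1 cell line, so this p-value does not cover the spread over regions. The rule did not use H3K9me3, but the regions were chosen with earlier results of these data known. In all 6 lists H3K9me3 covered some of 74 regions (30.1%), against 6.75% of acetylated regions, while 129 (52.4%) had it in 0 lists and 43 in 1 to 5 lists.

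The excess differed with position. More than 5 Mb from the longest empty span, 145 regions without H3K27ac overlapped H3K9me3 in 17.2% to 22.8% per library and acetylated regions in 15.7% to 19.9%, a mean difference of 2.21 percentage points. Within 1 Mb of the span, 66 regions without H3K27ac overlapped it in 69.7% to 72.7% and 169 acetylated regions in 43.8% to 49.7%, a mean difference of 25.2 points. Both differences were positive in 6 of 6 libraries, and the one near the span was larger in each, by 23 points on average. Since the measure of position was chosen after the positions had been seen, this carries no test. Near the span, 38 of 66 (57.6%) had H3K9me3 in all 6 lists, and far from it 18 of 145 (12.4%). The part of position in the whole excess was not tested, nor was that of read mapping near the span.

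Width moved the share too. Under 1000 bp, 26.0% ± 2.63 of the regions without H3K27ac overlapped H3K9me3 (mean ± SD over 6 libraries), against 13.1% ± 0.996 of acetylated regions. Between 1000 and 4000 bp the shares were 46.0% ± 1.26 and 18.4% ± 2.21. The H3K9me3 peaks at these regions were also denser, with medians of 22 to 25.5 reads per kb per library against 16.4 to 17.1 at acetylated regions.

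**Figure D3:**
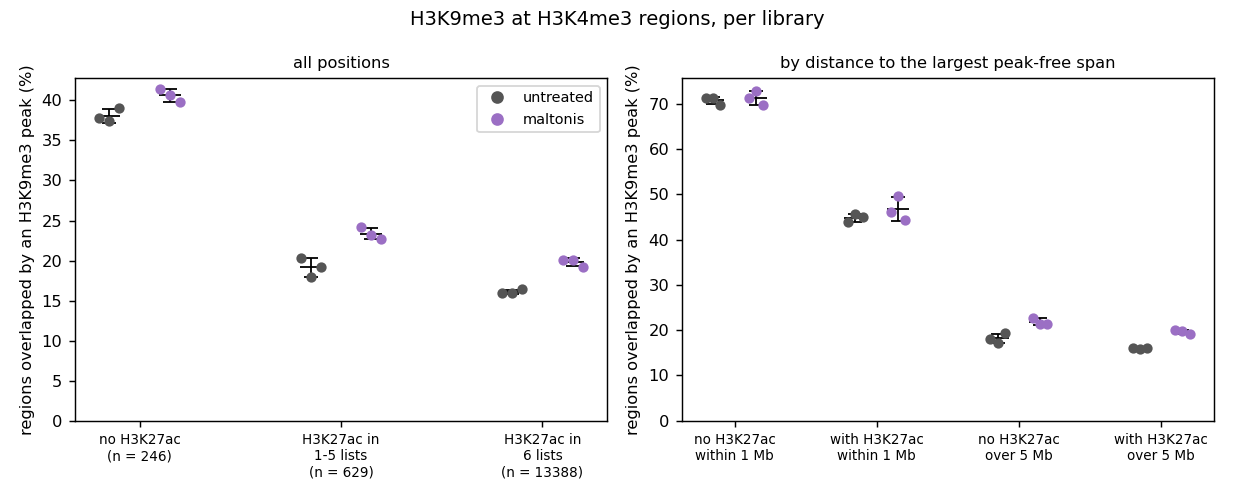
Percent of H3K4me3 regions overlapped by an H3K9me3 peak, per library, for 3 classes of H3K27ac (left) and split by distance to the longest peak-free span (right; 66 and 169 regions within 1 Mb, 145 and 12975 beyond 5 Mb, without and with H3K27ac). Points are libraries, grey untreated and purple maltonis, and bars give the mean ± SD (n = 3). The gap between regions without and with H3K27ac was 25.2 points near the span and 2.21 points away from it.

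The regions with H3K9me3 in all 6 lists and those with it in none were unlike each other. The 129 with none had a median merged width of 1187 bp, a median fold enrichment of 3.54 and a median percentile of 29.0. The 74 with H3K9me3 in all 6 lists were wider, at 1926 bp, and weaker, with a fold enrichment of 3.00 and a percentile of 20.4. Within 1 Mb of the longest empty span lay 38 of the 74 (51.4%) and 13 of the 129 (10.1%). The median distance to the closest H3K27ac peak was 42.9 kb for the 74 and 56.2 kb for the 129.

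A few regions lay in H3K9me3 peaks with very many reads. The part of read mapping in these counts was not tested. The H3K9me3 peak at chr4:49132477-49134323 held 9701, 10248 and 10245 reads in untreated and 10253, 10201 and 9262 in maltonis libraries, and these raw counts overlapped. H3K4me3 was called there in all 6 lists, at a fold enrichment of 3.41, 3.89 and 3.88 in untreated and 3.94, 4.22 and 3.58 in maltonis libraries. On chromosome 21 the regions 10818860 to 10820057 and 10835651 to 10839540 shared 1 H3K9me3 peak of 7723, 7948 and 8065 reads in untreated and 8402, 8126 and 7417 in maltonis libraries. The next was the wide region of chromosome 10 that starts at 39136724. The peaks touching it held 3796, 3209 and 4074 reads in untreated and 1583, 4195 and 3860 in maltonis libraries. Some lists split this H3K9me3 region, which as a whole held 3796, 4074 and 4074 against 4190, 4195 and 3860 reads. For the last of the 5, chr12:133778002-133780596, the touching peaks had 1883, 1986 and 2190 reads in untreated and 1982, 3160 and 1653 in maltonis libraries. Its whole H3K9me3 region held 6143, 6507 and 6562 against 6245, 6145 and 5576 reads. In each of these peaks, reads overlapped between conditions.

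Fewer of these regions had an H3K4me3 peak in the maltonis libraries. The maltonis lists were also shorter as a whole, with 15841 to 16383 peaks against 17335 to 17755 in the untreated lists, and the part of list length in the fall was not tested. A peak was called at 86.2%, 81.7% and 82.5% of them in the untreated and at 74.4%, 74.0% and 77.2% in the maltonis libraries. Every maltonis library was below every untreated one, and the mean went from 83.5% ± 2.38 to 75.2% ± 1.77 (SD, n = 3 each). The share fell by 8.27 percentage points. The rule used these same calls, so the shares are a description with no test. Acetylated regions went from 95.1% ± 0.232 to 94.2% ± 0.0566, which was also without overlap. The fall was larger by 7.31 points in the regions without H3K27ac, which were also the weaker ones in every library.

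A larger fall was seen in the class closest in strength. Regions with H3K27ac in 1 to 5 lists were called at 92.7%, 90.5% and 93.2% in untreated and 72.5%, 74.6% and 72.3% in maltonis libraries. Their fall exceeded that of the regions without H3K27ac by 10.7 points. This class depends on which H3K27ac lists had a peak, and the maltonis H3K27ac lists covered less (172 to 185 Mb against 218 to 230 Mb), so its fall cannot be told apart from how the class was formed. When only peaks with a −log10 q of at least 5 were used, 60 regions met the rule. Among the 246 regions, the share with such a peak fell by 2.17 points, with overlapping conditions.

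By region, 83 (33.7%) were called in more untreated than maltonis lists, 39 (15.9%) in more maltonis lists and 124 in equal numbers. Among acetylated regions the shares were 8.40% and 6.36%. At the extremes, 24 of the 246 (369 of the 14017 acetylated regions) had a peak in 3 untreated lists and 1 maltonis list. The reverse held for 7 of the 246 (254 of the acetylated regions). A further 77 regions, outside the rule, were called in 3 lists of 1 condition and in none of the other, and 69 in 1 list of each.

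The 129 regions with H3K9me3 in 0 lists went from 93.0%, 82.2% and 86.0% called in untreated to 72.9%, 76.0% and 75.2% in maltonis libraries, with no overlap. The 74 with H3K9me3 in all 6 lists had 81.1%, 77.0% and 82.4% in untreated and 79.7%, 71.6% and 86.5% in maltonis libraries, which overlapped. The mean change of the latter fell by 0.901 points but rose by 2.93 points without maltonis replicate 2 and by 0.225 points without untreated replicate 3. The difference between both changes was -11.5 points, with overlapping libraries. Without maltonis replicate 2 it was -16.0 and without untreated replicate 3 -13.1, and in both cases the conditions were apart, so 1 library decided the overlap. Whether regions with and without H3K9me3 responded differently was not tested.

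The height and width of the peaks that remained were compared in the 102 regions called in all 6 lists, with exact two-sided permutation tests over libraries. The smallest p that 3 libraries against 3 allow is 0.1, so none of these contrasts could reach 0.05. Regions lost in any library are left out of this comparison by design. Calls and merged width also chose the regions, so these p-values hold for the chosen set only. The median fold enrichment of the 102 was 3.87, 3.98 and 3.98 in untreated and 3.84, 4.08 and 3.90 in maltonis libraries. The conditions overlapped, with a mean of 3.94 ± 0.0596 and 3.94 ± 0.123 (exact permutation p = 1). In the 11657 acetylated regions called in all 6 lists it went from 4.69 ± 0.0572 to 4.20 ± 0.0849, with no overlap (exact permutation p = 0.1). The log2 ratio of both medians rose by 0.16 with maltonis, without overlap (exact permutation p = 0.1). Over all regions without H3K27ac that a library called, the median fold enrichment fell by 0.212, with the conditions apart. Each median covers only the 182 to 212 regions that its library called, so this is a description with no test. The level among the reproducible 102 does not stand for the rest.

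The called width of the 102 had medians of 943.5, 843 and 909 bp in untreated and 1030.5, 1070.5 and 872.5 bp in maltonis libraries. The third maltonis library lay within the untreated range, and the change of 92.7 bp gave an exact permutation p of 0.3. Without that library the conditions were apart and the change was 152 bp. Acetylated regions widened from 1457 ± 20.1 to 1709 ± 21.5 bp, with no overlap (exact permutation p = 0.1). The log2 ratio of the widths of both groups fell by 0.092 on average and overlapped between conditions (exact permutation p = 0.5). Without the same maltonis library it was 0.0013, and without untreated replicate 2 it was -0.14 with the conditions apart.

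Single regions were tested with limma on log2 values over all 12099 regions called in all 6 lists, of which 102 were regions without H3K27ac. A call needed an FDR of at most 0.01 and a log2 change of at least 0.58. For fold enrichment 1 of the 102 rose (0.0992% of all regions tested) and 4 fell (2.19% of all). For width 2 rose (3.82% of all) and 0 fell (0.289% of all). At an unadjusted p of at most 0.05 and no fold limit, 8 of the 102 had higher fold enrichment (4.90% of all) and 20 lower (50.7% of all), and 15 were wider (49.4% of all) and 7 narrower (3.10% of all). At an FDR of at most 0.05 and no fold limit the counts were 4 higher (3.66% of all) and 18 lower (44.0% of all) in fold enrichment, and 7 wider (40.4% of all) and 1 narrower (1.79% of all). The median log2 change of all regions tested was -0.14 for fold enrichment and 0.19 for width, and that of the 102 was -0.05 and 0.10. Both lay nearer to 0 than the shift of all regions.

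The same difference appeared without a threshold. All 3 maltonis values of fold enrichment lay below all 3 untreated ones in 21 of the 102, or 20.6%, while this held for 52.9% of all regions tested. They lay above in 6, or 5.88%, against 5.28% of all. For width all 3 maltonis values were higher in 22, or 21.6%, against 54.9% of all, and lower in 7, or 6.86%, against 4.03%. The 102 were also weaker than the rest, and the part of strength in this difference was not tested. The 280 regions with H3K27ac in 1 to 5 lists and called in all 6 had similar untreated medians of fold enrichment, 4.01 to 4.14. With maltonis these were 3.38 to 3.46, and the median width went from 921.5 to 938 bp to 787.5 to 883.5 bp. This cannot be told apart from how that class was formed.

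**Figure D4:**
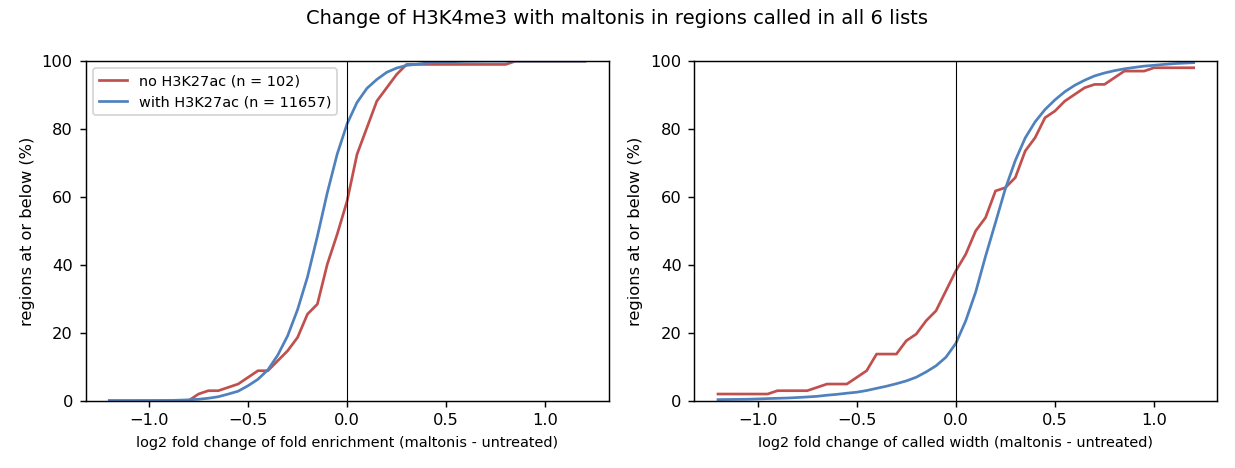
Cumulative percent of regions (y axis) at or below a log2 change, maltonis minus untreated (x axis), of fold enrichment (left) and called width (right), for regions called in all 6 lists without H3K27ac (red, 102) and with it (blue, 11657). The medians of the regions without H3K27ac, at -0.05 and 0.10, lay nearer to 0 than those of all regions tested, at -0.14 and 0.19.

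The region that rose was chr3:195384346-195385151. Its fold enrichment was 3.84, 3.83 and 3.62 in untreated and 5.88, 7.09 and 7.06 in maltonis libraries, with a wide gap between the conditions. The log2 change was 0.82 (SE 0.076, limma FDR 0.000221), and it was called whichever library was left out and also after each library had been centred on its median. Its called width did not follow, with 648, 727 and 587 bp in untreated and 782, 529 and 528 bp in maltonis libraries. H3K9me3 was in 0 lists there, and the closest H3K27ac peak lay 37.2 kb away.

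Of the 4 regions that fell, chr6:58286378-58288022 had values of 6.37, 7.23 and 6.58 in untreated and 4.14, 4.52 and 3.23 in maltonis libraries, a log2 change of -0.78 (SE 0.11, limma FDR 0.00129). It lay 492 kb from the longest empty span of chromosome 6. The region chr7:133811830-133812671 had 4.86, 5.28 and 4.74 in untreated and 3.26, 3.08 and 2.51 in maltonis libraries, a log2 change of -0.76 (SE 0.096, limma FDR 0.000713). Both were called whichever library was left out and after centring.

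The other 2 were called only before centring. In chr9:113481-114442 the values were 5.61, 5.29 and 5.16 in untreated and 3.25, 3.44 and 2.98 in maltonis libraries, a log2 change of -0.73 (SE 0.064, limma FDR 0.000203) that was -0.58 and just under the fold limit after centring. In chr7:102212214-102213174 they were 4.54, 6.76 and 5.15 against 3.68, 3.59 and 3.16, a log2 change of -0.64 (SE 0.13, limma FDR 0.00553). This call was kept without untreated replicate 1 and lost without any other library. In all 4 regions every maltonis value was below every untreated value, and H3K9me3 was in 0 lists in 3 of them and in 1 list, of a maltonis library, in chr7:133811830-133812671.

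**Figure D5:**
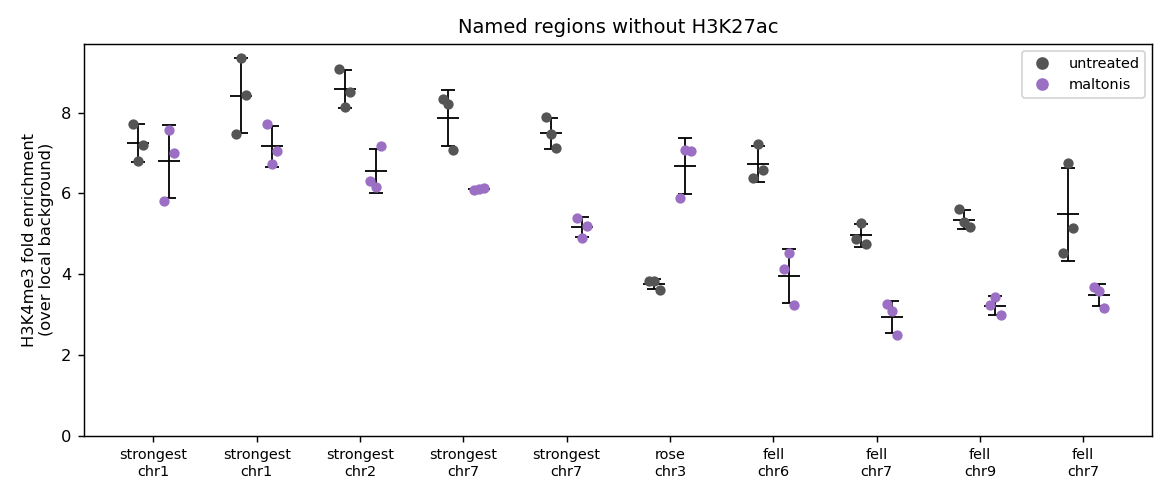
H3K4me3 fold enrichment over local background (y axis, from 0) in the 5 strongest regions without H3K27ac, in the 1 that rose and in the 4 that fell with maltonis. Points are libraries, grey untreated and purple maltonis, and bars give the mean ± SD (n = 3). The region of chromosome 3 went from 3.62 to 3.84 in untreated to 5.88 to 7.09 in maltonis libraries.

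Both regions that widened lay on chromosome 9. The region chr9:70488906-70490116 had called widths of 624, 744 and 650 bp in untreated and 1204, 1169 and 1149 bp in maltonis libraries, a log2 change of 0.81 (SE 0.1, limma FDR 0.00306). For chr9:99774801-99776649 they were 1104, 1038 and 1099 bp against 1643, 1849 and 1667 bp, a log2 change of 0.67 (SE 0.066, limma FDR 0.00155). The conditions were far apart in both, while the fold enrichment of the latter went the other way, from 4.67, 5.15 and 5.34 to 3.92, 4.07 and 4.23. Neither was called after centring or with the replicate block. The call of chr9:70488906-70490116 was lost without untreated replicate 3, which left 1 region called, and without any 1 maltonis library, when 1 other region was called in its place each time.

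No region passed the test for a fall in width. The largest estimates were -1.42 in chr8:119121457-119124707 (955, 424 and 3009 bp in untreated and 367, 369 and 473 bp in maltonis libraries, limma FDR 0.152), -1.33 in chr14:56584467-56586006 (limma FDR 0.0798) and -0.91 in chr9:113481-114442 (limma FDR 0.0725). In the first, 1 untreated library set most of the estimate. The region of chromosome 14 was called, as the only 1, without maltonis replicate 1, at -1.89 (limma FDR 0.00684).

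H3K9me3 at the regions without H3K27ac went from 38.1% ± 0.846 overlapped in untreated to 40.7% ± 0.813 in maltonis libraries (SD, n = 3 each). The conditions did not overlap, and the rise of 2.57 points had an exact permutation p of 0.1. Acetylated regions rose by 3.73 points, with the conditions apart, and the difference between both rises was -1.15 points, also apart (exact permutation p = 0.1 for each). The maltonis libraries had fewer H3K9me3 peaks (29432 to 29997, against 33923 to 35171). With the 29432 strongest peaks of each list the rise was 4.07 points.

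Reads were tested with edgeR in the 14165 H3K9me3 regions called in all 6 lists, of which 72 overlapped a region without H3K27ac. Of the 72, 1 rose (0.254% of all regions tested) and 0 fell (0.0141% of all). DESeq2 gave 1 and 0 too, but with 132 rises and 37 falls among all 14165. At an unadjusted p of at most 0.05, 15 were higher (8.60% of all) and 1 lower (5.41% of all). The median log2 change was 0.14 in the 72, 0.10 in the 1557 that overlapped acetylated regions and -0.0022 in all regions tested.

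The region that rose was chr19:46444001-46476600, which held the H3K4me3 region chr19:46455978-46457700. Its reads were 96, 168 and 69 in untreated and 332, 485 and 276 in maltonis libraries, with no overlap, and the log2 change was 1.82 (SE 0.28, edgeR FDR 0.00919). The called H3K9me3 length grew alongside, from 5800, 10200 and 4400 bp to 18800, 29800 and 15200 bp. With that length as an offset the change was 0.20 (edgeR FDR 0.739). The call was also lost without any 1 library other than untreated replicate 2. Rises among all 14165 regions numbered only 1 to 11 in those fits, against 36 with all libraries. H3K4me3 was called there in 1 untreated list, at a fold enrichment of 2.53, and in 3 maltonis lists, at 2.67, 2.79 and 3.14.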

How the data were processed

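ChIP-seq peak lists of NB4 cells were used, 1 per library, grouped by sample title. The 246 regions, the lists and the measures were chosen with earlier results of these data known. Per the labels and methods, the authors aligned reads to hg19 with BWA and SAMtools, kept uniquely mapped reads, and called H3K4me3 with MACS2 and the other marks with SICER or its successor epic2, in 200 bp windows. Versions and parameters are not given in the sources used here. For H3K4me3 the authors deposited a score, a fold enrichment ratio over the local background, a −log10 p-value and a −log10 q-value per peak (lowest −log10 q 1.00). For H3K9me3 and H3K27ac they deposited raw read counts and an island score per peak, with borders that differ between libraries. H3K27ac served only for overlap. Replicates were not pooled.

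Computed here, in Python 3.11.15 (numpy 2.4.6, pandas 2.3.3) and R 4.3.3, were merged regions and their overlap (at least 1 bp), the highest fold enrichment, called width and percentile of the −log10 q per region and list, exact permutation tests over the 20 assignments of 6 libraries, exact sign-flip tests over 64 sign assignments, limma 3.58.1 (log2 values, trend, no pseudocount, regions called in all 6 lists) and edgeR 4.0.16 (quasi-likelihood, TMM), with Benjamini-Hochberg FDR. DESeq2 1.42.0 was an alternative. Calls needed an FDR of at most 0.01 and a log2 change of at least 0.58, as in the study. The planned test of the share called is not reported, since calls chose the regions. Tests cover the spread between libraries, and regions are not replicates.

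Regions named were the 5 strongest, the 5 widest, the 5 with most H3K9me3 reads, up to 5 that passed each test per direction (or 3 with the largest estimates where none passed), the 3 next to the width limit on each side, and those whose H3K9me3 region passed. A named cluster or chromosome was chosen after its values were seen. Replicate numbers were not used to pair the samples in the main tests, since all correlations of deviations between same-numbered libraries were under 0.1. This does not show whether same-numbered samples were handled together. Alternatives were other membership rules, comparison groups, thresholds, scalings and filters, the replicate block, and each library left out. Chromosome X was not part of the rule. No column of per-sample values was left unmapped.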

Additional observations from a re-analysis of the deposited data

Results flagged for a closer look

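Chromosome X lay outside the rule. There, 11 of the 398 H3K4me3 regions of the same width and reproducibility (2.76%) had no H3K27ac in any list, against 1.72% on chromosomes 1 to 22. They stand out only as a signal in data that the comparisons did not use, and the difference between X and the other chromosomes was not tested.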

How the results depend on the processing

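Of 231 alternatives, 191 kept the direction and the side of the threshold, or for counts stayed within 1.5 times. The others are given here, those with 1 library left out mostly as ranges, and the cause was not tested unless the alternative's construction gives it. The number of regions was 102 when all 6 lists were required and 60 with a −log10 q of at least 5 (fewer peaks pass), and 209 to 258 with 1 library left out. The difference in percentile to acetylated regions, -31.5, was -33.1 against regions with H3K27ac in all 6 lists and -29.8 among regions called in all 6 lists. With a −log10 q of at least 5, the share of the 246 regions called fell by 2.17 points with overlapping conditions. Among those that met this limit in all 6 lists, the width rose by 109.5 bp with conditions apart. Over all regions called in a library, the median fold enrichment fell by 0.212, with conditions apart.

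In limma, an FDR of 0.05 with no fold limit gave 4 rises (3.66% of all regions tested) and 18 falls (44.0%) of fold enrichment and 7 rises (40.4%) and 1 fall (1.79%) of width. Centring each library left 2 falls of fold enrichment (61 of all 12099 regions tested) and 0 rises of width (85 of all). In edgeR, 0 H3K9me3 rises were left with called length as an offset (18 of all 14165 regions tested). With regions called in at least 4 lists 0 were left (0 of all 22724). The replicate block left 0 rises of width (16 of all 12099) and no other call changed. In the labels, the samples share only a number.

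With 1 library left out, the change in width ran from 53 to 152 bp and in fold enrichment from -0.0709 to 0.0484, being positive without untreated replicate 2 (0.0157) or 3 (0.0145) and without maltonis replicate 1 (0.0484) or 3 (0.0162). The change in the share called with H3K9me3 in all 6 lists ran from -4.50 to 2.93 points, being positive without untreated replicate 3 (0.225) and maltonis replicate 2 (2.93). Its difference to regions with H3K9me3 in 0 lists ran from -16.0 to -8.16, with conditions apart without untreated replicate 3 (-13.1) or maltonis replicate 2 (-16.0). The log2 ratio of widths ran from -0.145 to 0.0013, positive without maltonis replicate 3 and apart without untreated replicate 2 (-0.139). The excess of H3K9me3 overlap ran from 21.0 to 21.4 points, where 5 libraries cannot reach 0.05 (p = 0.0625, exact sign-flip test). Rises of width numbered 1 to 2 (290 to 429 of all 12099 regions tested) and falls 0 to 1 (24 to 43 of all). H3K9me3 rises numbered 0 to 1 (1 to 12 of all 14165, against 36 with all libraries). The regions changed too. Rises of width were gained at chr17:18312530-18315387, chr17:20434427-20436909 and chr5:68855565-68857073 without maltonis replicate 1, 2 and 3, and a fall of fold enrichment at chr5:21459411-21460170 without untreated replicate 3 or maltonis replicate 2. Positions, the classes of H3K9me3 and the contrasts with acetylated regions were added after the data had been seen. The lists do not give the read depth behind the H3K4me3 peaks.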
